A study of Homo sapiens with 4 samples.

Results

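EWSR1-FLI1 activated genes are genes reported to depend on the fusion transcription factor of Ewing sarcoma. The 29 described here are such genes without the surface antigens, neuropeptides, cell cycle and chromatin genes, and they were matched by symbol to the Ensembl identifiers of the deposited table. All 29 were found among its 60617 gene entries, each with 1 identifier. With CBL0137, 13 of the 28 that could be tested fell, against 15.1% of all genes tested, and 1 rose, against 18.2%. The genes were chosen with earlier results of these data known, so these counts are a description. FLI1 itself, with 71.1 ± 2.18 CPM with CBL0137 and 69.9 ± 0.759 CPM with DMSO (SD, n = 2 each), did not pass the test (CPM are read counts scaled to library size with TMM factors).

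RNA was sequenced from SKNMC, an established human cell line of Ewing sarcoma. One group of 2 libraries came from cells given CBL0137 at 1 µM for 24 h, and the other 2 libraries came from cells given the DMSO vehicle for the same time. CBL0137, one of the curaxins, intercalates into DNA and thereby holds FACT, a histone chaperone, on chromatin. Whether libraries of the same group stem from different cultures is not given in the labels. The p-values therefore measure the spread between these libraries, which may be technical.

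In Ewing sarcoma a chromosome translocation joins the activation domain of EWSR1 to the DNA-binding domain of an ETS factor, most often FLI1. The fusion protein binds single ETS sites and also repeats of the tetranucleotide GGAA, where it can open chromatin and form new enhancers. Genes next to such repeats, of which NR0B1 is the best known, are then switched on in the tumour cells. The fusion was not read out separately here, since counts per gene do not separate fusion transcripts from those of the unfused alleles.

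The GGAA repeats near these genes are shown because they are the known binding sites of the fusion protein. In the 10 kb upstream of the annotated gene start, 7 of the 29 genes (24.1%) had a run of at least 4 GGAA in a row on either strand in the GRCh37 reference. Among all 19827 protein-coding genes with a position, 4.79% had one. The list was drawn from reports on this fusion, some of which looked for such repeats, so the excess is a description and was not tested. The longest run of each gene is printed 5′ to 3′ on the strand that reads GGAA, with every GGAA in capitals. LIPI and RBM11 lie head to head and share 1 repeat. Repeat lengths are those of the reference, not of SKNMC.
NR0B1, chrX:30328865-30328986, minus strand: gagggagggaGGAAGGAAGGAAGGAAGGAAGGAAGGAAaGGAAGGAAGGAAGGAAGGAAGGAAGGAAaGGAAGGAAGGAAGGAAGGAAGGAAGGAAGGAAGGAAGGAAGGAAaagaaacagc
LBH, chr2:30445946-30446057, plus strand: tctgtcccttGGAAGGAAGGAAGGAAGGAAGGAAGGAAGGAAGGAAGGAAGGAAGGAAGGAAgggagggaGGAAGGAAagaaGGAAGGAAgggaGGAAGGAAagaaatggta
GSTM4, chr1:110196848-110196940, plus strand: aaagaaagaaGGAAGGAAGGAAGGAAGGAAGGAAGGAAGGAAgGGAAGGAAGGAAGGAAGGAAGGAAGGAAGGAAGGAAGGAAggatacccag
FATE1, chrX:150883206-150883273, minus strand: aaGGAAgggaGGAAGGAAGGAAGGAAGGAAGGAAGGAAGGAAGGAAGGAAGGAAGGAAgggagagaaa
CACNB2, chr10:18426007-18426070, minus strand: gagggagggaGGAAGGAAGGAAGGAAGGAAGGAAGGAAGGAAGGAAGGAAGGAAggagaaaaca
LIPI and RBM11, chr21:15585603-15585666, minus strand: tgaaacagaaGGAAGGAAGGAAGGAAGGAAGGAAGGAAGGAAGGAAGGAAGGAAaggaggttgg

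The NR0B1 block held 25 GGAA, broken by single bases into runs of 7, 7 and 11, and its nearest run began 1368 bases upstream of the gene start. LBH had the longest unbroken run, with 13 GGAA, 8393 bases upstream. Of the 7 genes next to a repeat 6 could be tested, and 2 of them, LBH and NR0B1, fell, while 4 were not called. Of the 22 tested genes without such a run 11 fell, 1 rose and 10 were not called. Runs within genes, downstream of them or farther upstream were not searched. Over all genes tested 15.1% were called lower and 18.2% higher, and whether genes with and without a run differ was not tested. In the RefSeq promoter table (GRCh38.p14, from 250 bases before to 50 after the start), which held 26 of the 29 genes, GGAAGGAA on either strand was found in a promoter of E2F3 alone among them. The same letters occurred in 3.68% of all promoters in the table. The ETS site CCGGAAGT, on either strand, was found in that of STYXL1 alone, against 4.14% of all promoters.

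**Figure D1:**
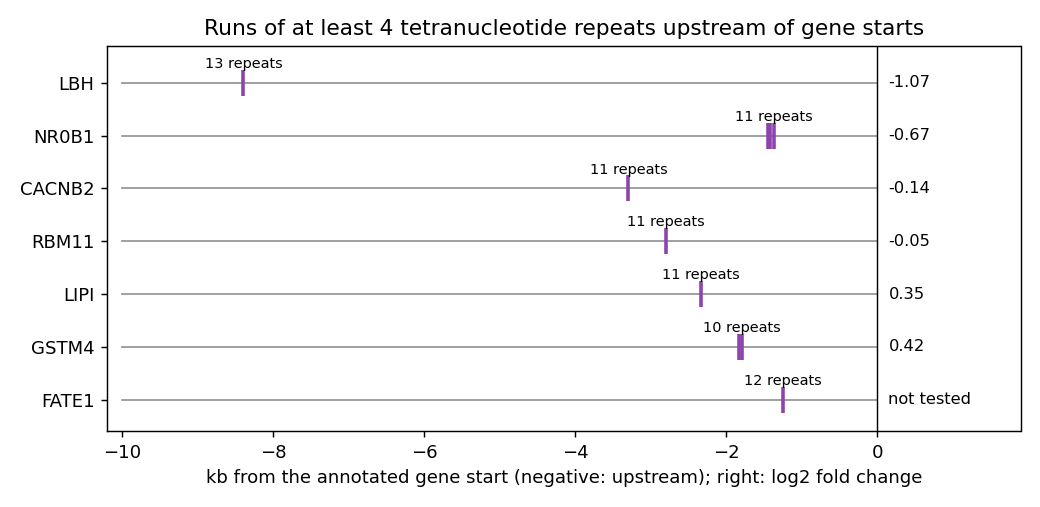
Position of tetranucleotide (GGAA) repeat runs within 10 kb upstream of the 7 EWSR1-FLI1 activated genes that have one, on the x axis in kb from the annotated gene start, with the longest run written above its mark. The number at the right is the log2 fold change of the gene, CBL0137 over DMSO, from -1.07 for LBH to 0.42 for GSTM4, and FATE1 was not tested.

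Libraries held 20767817 and 21061892 reads in genes with CBL0137, and 20086664 and 19625517 with DMSO. Of the Ewing sarcoma markers fixed for the check of the label, all 8 were present, and CD99, which encodes the diagnostic surface antigen, was at 169 and 189 CPM with CBL0137, and 299 and 279 CPM with DMSO. Among the defining markers of other cell types, the muscle factor MYOG was at 0 in all 4 libraries. KRT18 of the epithelial list, PTPRC of the leukocyte list and the collagens of the fibroblast list were well above 0 in both groups. The summed level of 6 epithelial markers was 117 and 117 CPM with CBL0137, and 51.7 and 52.9 CPM with DMSO. All 5 of those tested were called higher, against 18.2% of all genes tested, and CDH1 was at 0 in both DMSO libraries. KRT18 alone was at 99.3 and 97.3 CPM with CBL0137, and 45.8 and 46.6 CPM with DMSO. KRT19 had 26 and 30 reads with CBL0137, and 6 and 0 with DMSO. CLDN4 had 54 and 53 reads with CBL0137, and 3 and 17 with DMSO. KRT19 and CLDN4 passed the filter on low counts only because of the CBL0137 libraries. Genes that low with DMSO could enter the test only by being higher with CBL0137. Summed fibroblast markers were 1621 and 1614 CPM with CBL0137, and 1374 and 1362 CPM with DMSO. COL1A1 alone differed by more than the sum did, at 471 and 441 CPM with CBL0137, and 127 and 119 CPM with DMSO, while LUM was called lower (log2 fold change -0.79) and the median over the 7 fibroblast markers was 0.03. Leukocyte markers summed to 108 and 125 CPM against 163 and 163 CPM, and the 4 endothelial markers found to 4.28 and 4.697 CPM against 2.38 and 2.42 CPM, with CBL0137 and DMSO in this order. What part these markers have in the changes below was not tested.

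Taken over all 29 genes, the summed level was 3320 and 3474 CPM with CBL0137, and 6687 and 6708 CPM with DMSO. Genes of high level weigh most in this sum. The mean of PTPN13 was 540 CPM with CBL0137 and 1308 CPM with DMSO, and that of FCGRT 310 and 1031 CPM. Calls required a fold above 1.5 and an adjusted p under 0.05 (edgeR quasi-likelihood test, Benjamini-Hochberg adjustment over all 17374 genes tested). By that rule 13 of the 28 tested genes were lower with CBL0137, against 15.1% of all genes tested, and 1 was higher, against 18.2% of all genes (either direction, 33.4%). The 14 others were not called. Of these, 4 lower and 4 higher genes had an adjusted p under 0.05 but a fold under the limit, and 6 had an adjusted p above 0.05. Without the fold limit 17 members were lower and 5 higher, beside 30.9% and 30.8% of all genes. The median log2 fold change was -0.54 over the tested members and 0.01 over all genes tested.

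Both CBL0137 libraries lay below both DMSO libraries in 20 of the 28 tested members, against 39.2% of all genes tested, and above both in 6, against 40.7%. The levels are shares of the sequenced RNA, and in bulk RNA fewer cells expressing a gene and less RNA per cell cannot be told apart. With scaling by library size alone, the median over all genes was higher by 0.16 (log2), and 11 members were then lower and 2 higher, beside 10.8% and 23.8% of all genes. With the trend of fold change with GC content and transcript length removed, 15 were lower and 2 higher, beside 16.5% and 16.1%. With a fold limit of 2, 8 were lower and 1 higher, beside 7.01% and 11.4%. With DESeq2, 13 were lower and 1 higher, beside 10.9% and 10.9%.

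**Figure D2:**
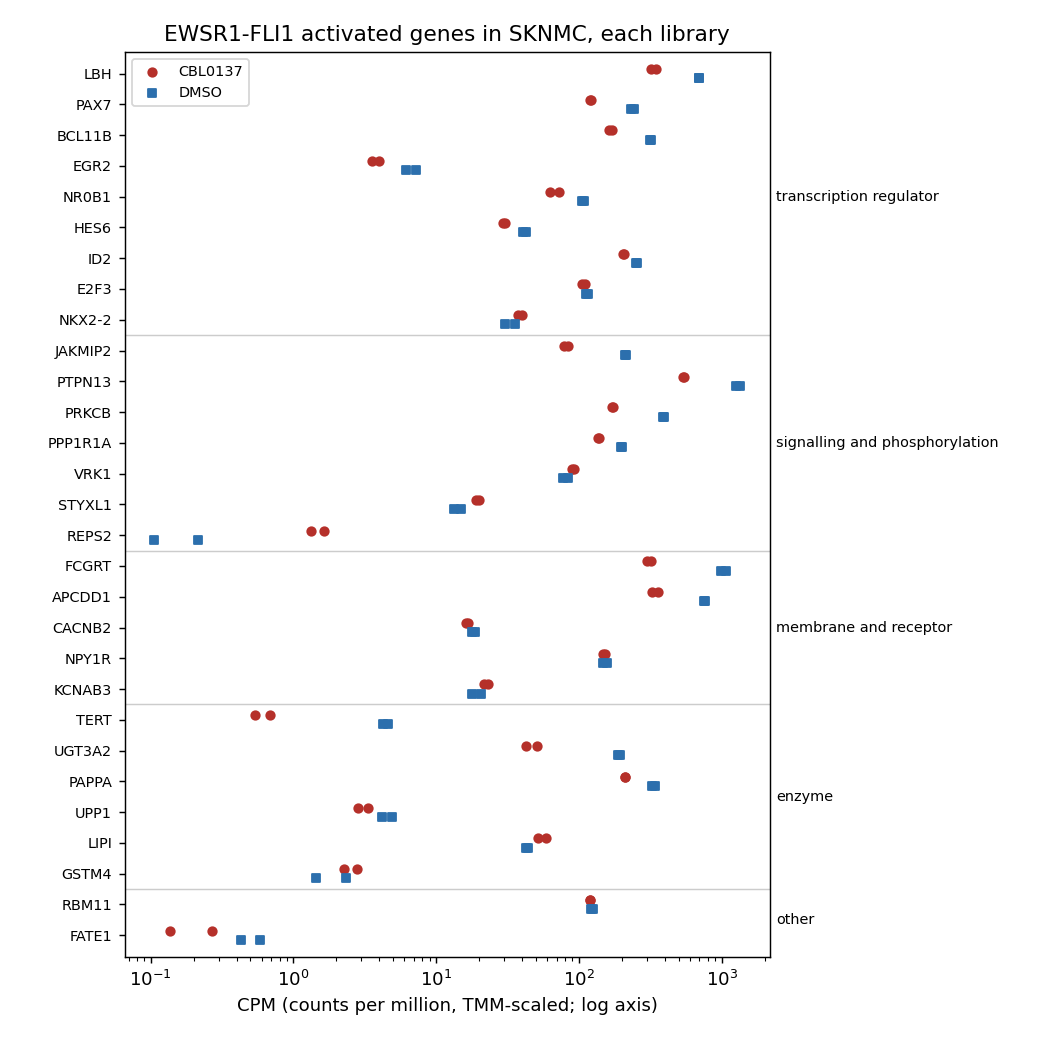
Level of each of the 29 genes in each library, in CPM scaled by TMM factors on a log axis, with genes grouped by role and 2 points for CBL0137 (circles) above 2 for DMSO (squares). In 21 genes, FATE1 included, both circles lie left of both squares, and REPS2 shows the widest gap to the right.

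Among the 9 transcription regulators 5 fell, 0 rose and 4 were not called, beside 15.1% lower and 18.2% higher over all genes tested. Whether the roles differ was not tested. LBH, a transcription cofactor of limb and heart development (ENSG00000213626, GRCh37 chr2:30454400-30546596, plus strand), was at 321 and 345 CPM with CBL0137, and 700.2 and 694 CPM with DMSO. The CBL0137 libraries were thus well below both DMSO libraries, and its log2 fold change was -1.07 (SE 0.05, adjusted p = 8.2e-21). PAX7, a paired-box factor of muscle stem cells that also marks Ewing sarcoma (chr1:18957340-19075360, plus strand), was at 119.9 and 121 CPM with CBL0137, and 234 and 245 CPM with DMSO. PAX7 changed by -0.99 on the log2 scale (SE 0.05, adjusted p = 1.5e-19). BCL11B, a zinc finger repressor of T cell development (chr14:99635624-99738534, minus strand), was at 162 and 171 CPM with CBL0137, and 321 and 315 CPM with DMSO. BCL11B changed by -0.93 on the log2 scale (SE 0.05, adjusted p = 6.1e-19).

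NR0B1 (DAX1), an orphan nuclear receptor that acts mostly as a repressor (ENSG00000169297, chrX:30322323-30327507, minus strand), carries the repeat block printed above. It was at 62.9 and 72.2 CPM with CBL0137, and 106 and 109 CPM with DMSO. The groups did not overlap, but the 2 CBL0137 libraries differed more from each other than the DMSO libraries did. Its log2 fold change was -0.67 (SE 0.06, adjusted p = 3.5e-12), close to the fold limit. NR0B1 was no longer called when CBL0137 replicate 1 was left out (-0.57), nor under library size alone (-0.51) or FPKM (-0.53). EGR2, a zinc finger factor needed for myelination whose locus carries Ewing sarcoma risk alleles, was low, with 4.01 and 3.57 CPM with CBL0137, and 7.24 and 6.12 CPM with DMSO. EGR2 changed by -0.82 (SE 0.20, adjusted p = 0.00037), and with log2(FPKM + 1) in limma it was -0.37 and not called (adjusted p = 0.069).

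The other transcription regulators moved by less than the fold limit. HES6, a basic helix-loop-helix repressor, was at 30.3 and 29.4 CPM with CBL0137, and 42.6 and 40.3 CPM with DMSO (log2 fold change -0.47, SE 0.08). HES6 is rich in GC, and with the trend of fold change with GC content and transcript length removed it was at -1.08 and called. ID2, which blocks basic helix-loop-helix factors from binding DNA, was at 204 and 208 CPM with CBL0137, and 255 and 250.3 CPM with DMSO (-0.29, SE 0.05). An antisense gene, ID2-AS1, covers part of ID2, and reads of that pair cannot be told apart without a stated strand setting. E2F3, a factor of the G1/S transition, was at 106 and 111 CPM with CBL0137, and 113 and 116 CPM with DMSO (-0.08, SE 0.06). Its sign turned under library size alone (0.08) and FPKM (0.17).

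NKX2-2, a homeodomain repressor used as a diagnostic stain for Ewing sarcoma, was not called. It was at 39.8 and 37.5 CPM with CBL0137, and 30.3 and 35.8 CPM with DMSO. Both CBL0137 libraries were above both DMSO libraries by a small margin, at 0.23 on the log2 scale (SE 0.08, adjusted p = 0.018), under the fold limit. Single libraries decided this value: it was 0.09 without DMSO replicate 1 (adjusted p = 0.45) and 0.34 without DMSO replicate 2, and the adjusted p was 0.14 without CBL0137 replicate 1 and 0.21 with DESeq2. With the GC and length trend removed NKX2-2 was at -0.04.

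**Figure D3:**
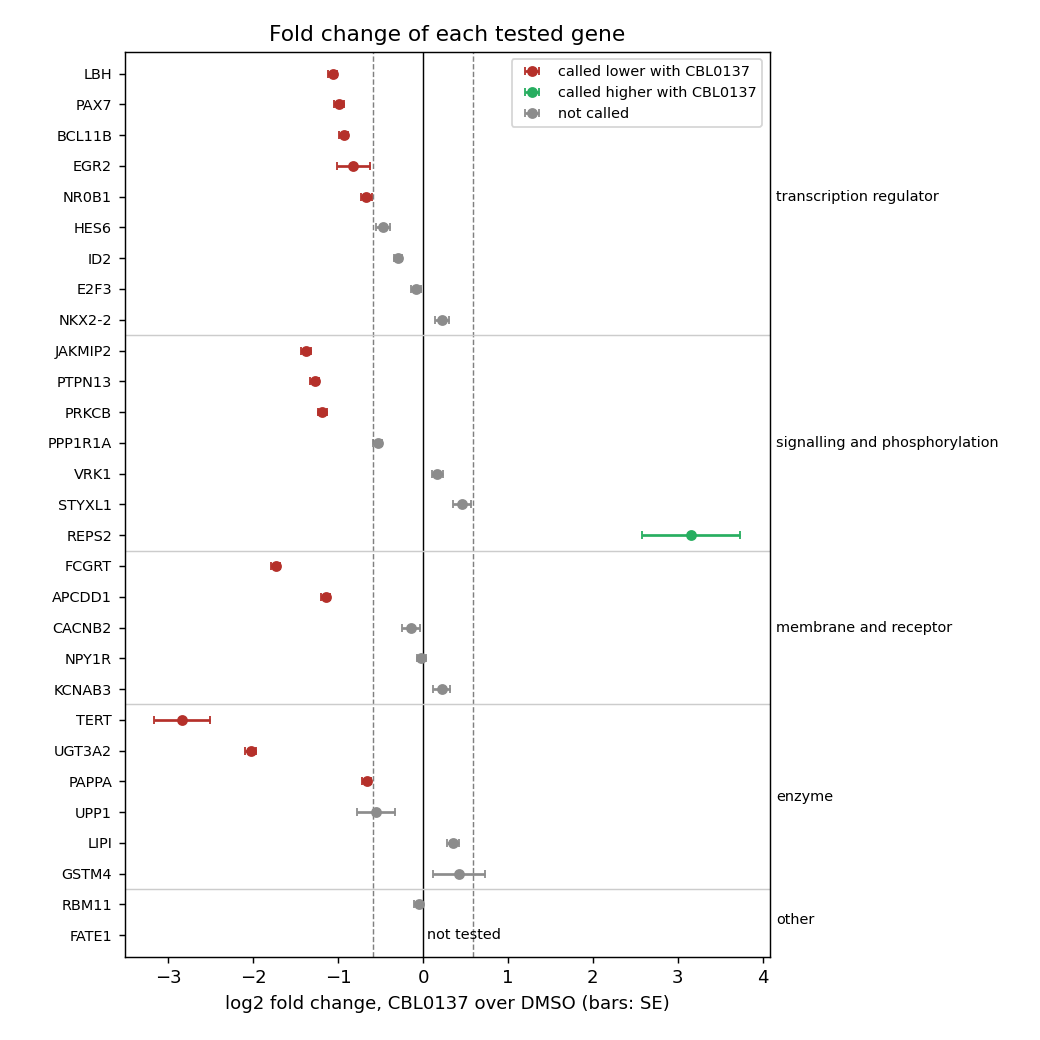
Log2 fold change of each tested gene, CBL0137 over DMSO, with bars for the SE, grouped by role and sorted within each role. Dashed lines mark a fold of 1.5 in either direction; 13 genes are called lower, REPS2 is called higher and FATE1 has no value.

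Of the 7 genes of signalling and phosphorylation 3 fell, 1 rose and 3 were not called, beside 15.1% lower and 18.2% higher over all genes. JAKMIP2, which encodes a coiled-coil protein that interacts with Janus kinases and microtubules (chr5:146965001-147162338, minus strand), was at 78.8 and 83.5 CPM with CBL0137, and 214 and 209 CPM with DMSO. JAKMIP2 changed by -1.38 on the log2 scale (SE 0.06, adjusted p = 7.9e-24). PTPN13, a large tyrosine phosphatase gene (chr4:87515468-87736324, plus strand), had the highest CPM of the 29 genes with 533 and 548 CPM with CBL0137, and 1264 and 1353 CPM with DMSO. The log2 fold change of PTPN13 was -1.28 (SE 0.05, adjusted p = 3.4e-23). Its deposited FPKM values were 43.5 and 43.4 with CBL0137, and 57.9 and 88.9 with DMSO, so the DMSO libraries disagreed there and the log2 ratio of means was -0.76.

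PRKCB, the gene of protein kinase C beta, which transmits diacylglycerol and calcium signals (chr16:23847304-24231932, plus strand), was at 169.8 and 174 CPM with CBL0137, and 389.7 and 392 CPM with DMSO. Replicates of PRKCB were close together in both groups, and its log2 fold change was -1.18 (SE 0.05, adjusted p = 1.5e-22). PPP1R1A, an inhibitor of a serine/threonine protein phosphatase, was at 136 and 137 CPM with CBL0137, and 199.7 and 196 CPM with DMSO. At -0.53 (SE 0.05, adjusted p = 1.5e-11) it stood just under the fold limit, and it was called with the GC and length trend removed (-0.72). PPP1R1A overlaps PDE1B on the opposite strand.

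VRK1, a nuclear kinase gene of mitotic entry, was at 92.1 and 89.7 CPM with CBL0137, and 84.2 and 77.5 CPM with DMSO (log2 fold change 0.17, SE 0.06). STYXL1, a catalytically inactive phosphatase gene, was at 19.0 and 20.1 CPM with CBL0137, and 15.01 and 13.4 CPM with DMSO (0.46, SE 0.11). STYXL1 was called higher with library size alone (0.62). Both genes thus had slightly higher levels in both CBL0137 libraries, under the fold limit.

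REPS2, an endocytic adaptor gene, was the 1 gene of the list that rose. It had 29 and 36 reads with CBL0137, and 2 and 4 reads with DMSO. The levels were 1.32 and 1.63 CPM with CBL0137, and 0.106 and 0.215 CPM with DMSO. The fitted log2 fold change was 3.16 (SE 0.58, adjusted p = 9.6e-06), and 203 of all 17374 genes tested had a higher one. REPS2 passed the filter on low counts through the CBL0137 libraries alone, so a gene at this level could enter the test only by being higher there. The ratio of summed reads, scaled for depth, was 9.22 with an exact 95% interval from 4.01 to 26.03, which covers counting error only.

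Among the 5 membrane and receptor genes 2 fell, 0 rose and 3 were not called, beside 15.1% lower and 18.2% higher over all genes. FCGRT, the heavy chain of the neonatal Fc receptor, which recycles immunoglobulin G and albumin (ENSG00000104870, chr19:50010073-50029685, plus strand), had the highest FPKM of the list. It was at 125 and 133 FPKM with CBL0137, and 427 and 378 FPKM with DMSO. In CPM it stood at 299.5 and 319.8 with CBL0137, and 1068 and 995 with DMSO, a change of -1.74 on the log2 scale (SE 0.06, adjusted p = 2.1e-27). APCDD1, a membrane-bound inhibitor of Wnt signalling (chr18:10454632-10489946, plus strand), was at 324 and 360.3 CPM with CBL0137, and 767 and 749 CPM with DMSO. APCDD1 changed by -1.15 on the log2 scale (SE 0.05, adjusted p = 1.9e-21).

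NPY1R, a receptor of neuropeptide Y, was at 147 and 153 CPM with CBL0137, and 147 and 157 CPM with DMSO. The groups overlapped, and the log2 fold change was -0.02 (SE 0.05, adjusted p = 0.76). With FPKM it was 0.32 and with the GC and length trend removed 0.20, so its direction depended on the processing. NPY1R overlaps NPY5R on the opposite strand. KCNAB3, an auxiliary subunit gene of voltage-gated potassium channels, was at 23.0 and 21.6 CPM with CBL0137, and 20.6 and 17.7 CPM with DMSO (0.22, SE 0.10). CACNB2, an auxiliary subunit gene of voltage-gated calcium channels, was at 16.2 and 16.7 CPM with CBL0137, and 17.7 and 18.6 CPM with DMSO (-0.14, SE 0.11). The sign of CACNB2 turned under library size alone (0.02) and FPKM (0.05), and that of KCNAB3 with the GC and length trend removed (-0.04).

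Of the 6 genes of enzymes 3 fell, 0 rose and 3 were not called, beside 15.1% lower and 18.2% higher over all genes. UGT3A2, a glycosyltransferase gene (ENSG00000168671, chr5:36035123-36071460, minus strand), was at 42.6 and 51.3 CPM with CBL0137, and 188 and 196 CPM with DMSO. Its log2 fold change of -2.03 (SE 0.06, adjusted p = 2.2e-27) was lower than those of all but 269 of the genes tested. TERT, the catalytic subunit of telomerase (ENSG00000164362, chr5:1253262-1295183, minus strand), had 15 and 12 reads with CBL0137, and 87 and 79 reads with DMSO. The levels of TERT were 0.683 and 0.542 CPM with CBL0137, and 4.60 and 4.24 CPM with DMSO. The fitted log2 fold change was -2.84 (SE 0.33, adjusted p = 5.4e-10). The ratio of summed reads was 0.138 with an exact 95% interval from 0.0885 to 0.209, again for counting error only. Over all genes, replicates differed by more than counting error (chi-square per degree of freedom 2.82 with CBL0137 and 3.12 with DMSO). Both genes were separated between the groups in every library, TERT at a low level.

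PAPPA, a secreted protease that cleaves insulin-like growth factor binding proteins (chr9:118916070-119164600, plus strand), was at 210.4 and 212 CPM with CBL0137, and 326 and 342 CPM with DMSO. PAPPA changed by -0.66 on the log2 scale (SE 0.05, adjusted p = 1.7e-14), near the fold limit, and was not called under library size alone (-0.50) or FPKM (-0.56). LIPI, a membrane-associated phospholipase gene, was at 51.4 and 59.3 CPM with CBL0137, and 42.8 and 43.999 CPM with DMSO (0.35, SE 0.07, adjusted p = 7.8e-05). It was called higher with the GC and length trend removed (0.597). LIPI thus had the opposite sign to LBH and NR0B1, although all 3 have a GGAA run upstream.

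UPP1, the uridine phosphorylase gene, was at 2.82 and 3.34 CPM with CBL0137, and 4.18 and 4.89 CPM with DMSO (-0.55, SE 0.23, adjusted p = 0.031). UPP1 was called lower without DMSO replicate 1 (-0.68) or CBL0137 replicate 2 (-0.69). GSTM4, a mu-class glutathione transferase gene, had 50 and 62 reads with CBL0137, and 44 and 27 reads with DMSO, and its groups overlapped (0.42, SE 0.30, adjusted p = 0.23). Its FPKM values, 9.64 and 9.94 with CBL0137 and 5.19 and 4.95 with DMSO, did not overlap and were called higher in limma (log2 difference 0.83, adjusted p = 0.0024). FPKM for each CPM, times the transcript length in kb, was 13.4 for GSTM4, and the next highest among the members was VRK1 with 4.75. Why the measures differ was not tested. GSTM4 belongs to a family of near-identical genes, and its value is uncertain.

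The last pair of genes have other roles. RBM11, an RNA-binding regulator of splicing, was at 119.8 and 119 CPM with CBL0137, and 122 and 125 CPM with DMSO. Its log2 fold change was -0.05 (SE 0.06, adjusted p = 0.44), and the sign turned with library size alone (0.11), upper-quartile factors (0.02), FPKM (0.14) and the GC and length trend removed (0.19). FATE1, a cancer-testis antigen gene, had 3 and 6 reads with CBL0137, and 11 and 8 reads with DMSO. It did not pass the filter on low counts and has no test.

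The deposited FPKM are described as per gene length, but the lengths behind them are not given. They were not in fixed proportion to counts per length, nor always to the counts of the same gene across libraries. With DMSO, PTPN13 was at 1264 and 1353 CPM, and at 57.9 and 88.9 FPKM. Why this is so was not tested. FPKM for each CPM, times the transcript length in kb, was 0.294 for E2F3, 0.542 for PTPN13, 4.75 for VRK1 and 13.4 for GSTM4. The order of genes by FPKM is therefore that of the authors' values only. With DMSO the mean level ran from 402 ± 34.7 FPKM for FCGRT and 164 ± 0.931 FPKM for LBH down to 0.302 ± 0.0912 FPKM for FATE1 and 0.00720 ± 0.00356 FPKM for REPS2 (SD, n = 2 libraries). APCDD1 (138 ± 1.42 FPKM) and ID2 (128 ± 0.386 FPKM) followed LBH. Next, PTPN13 (73.4 ± 21.9 FPKM) and PPP1R1A (72.4 ± 1.44 FPKM) did not differ beyond their spread. With CBL0137 the order at the top changed: FCGRT stood at 129 ± 5.07 FPKM, ID2 at 109.9 ± 0.975 FPKM, LBH at 84.2 ± 4.57 FPKM and APCDD1 at 61.2 ± 5.42 FPKM. Over the 13 genes called lower the median level with DMSO was 32.4 FPKM, against 17.8 FPKM over the 14 tested genes that were not called. The median gene span was 92.2 kb for the genes called lower and 16.7 kb for those not called. Beside these, it was 26.04 kb for all genes tested and 33.9 kb for the coding genes tested. Whether genes called lower and genes not called differ in level or span was not tested.

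FPKM, computed separately by the authors, gave the same sign of change as the counts in all but 4 of the tested genes, namely E2F3, NPY1R, CACNB2 and RBM11, each within 0.33 of 0 on the log2 scale by either measure. With limma on log2(FPKM + 1) 9 members were called lower and 1, GSTM4, higher, beside 9.39% and 12.7% of the 16736 genes tested that way. TERT, REPS2 and FATE1 were under the FPKM filter. These FPKM calls come from the same 4 libraries and are no independent replicate.

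**Figure D4:**
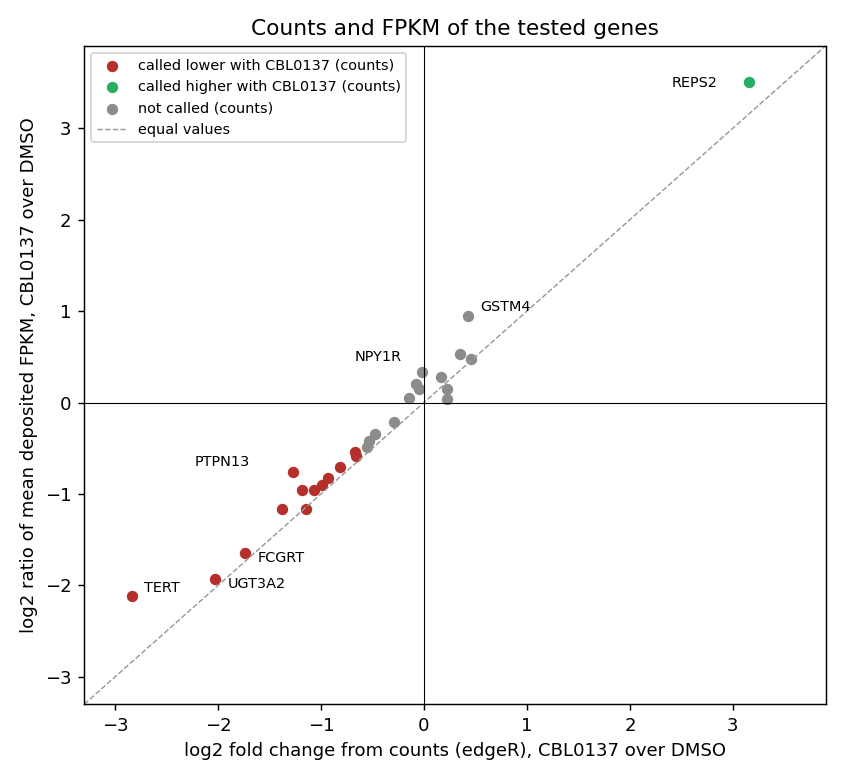
Log2 fold change from counts (x axis) against the log2 ratio of the mean deposited FPKM (y axis), CBL0137 over DMSO, for the 28 tested genes; the dashed line marks equal values. All genes but NKX2-2, APCDD1 and KCNAB3 lie above the line, with PTPN13, TERT and GSTM4 at -0.76, -2.12 and 0.95 on the y axis. Opposite signs on the axes are seen in 4 uncalled genes.

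**Figure D5:**
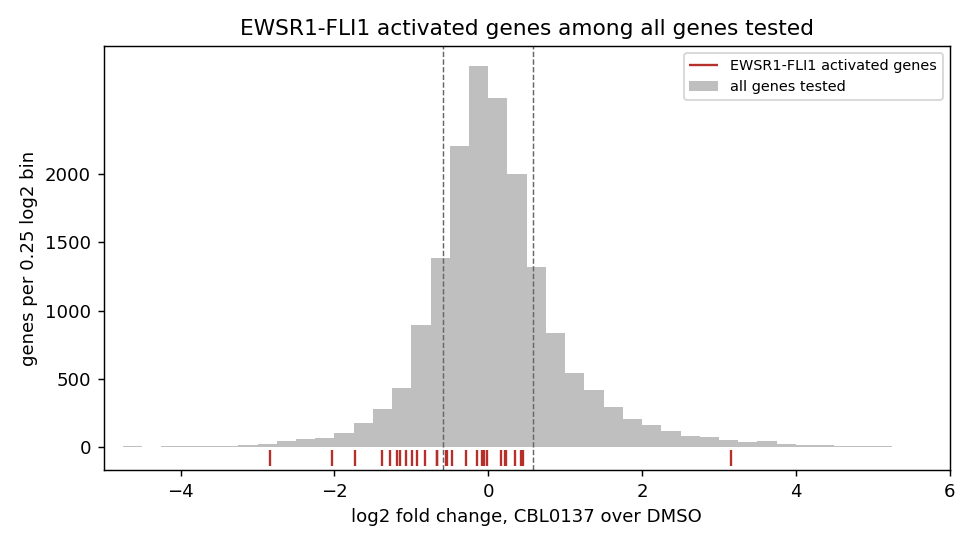
Number of genes per 0.25 log2 bin of fold change, CBL0137 over DMSO, for all 17374 genes tested (bars, grey), with a red tick under the axis for each of the 28 tested EWSR1-FLI1 activated genes and dashed lines at a fold of 1.5. Most ticks stand left of 0, from -2.84 for TERT, and REPS2 stands alone at 3.16.

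Other genes around the fusion were read from a pair of lists, which were chosen with earlier results of these data known. Among 52 other genes reported as activated by EWSR1-FLI1, 51 were tested, 21 fell, 3 rose and 27 were not called, beside the 15.1% lower and 18.2% higher over all genes. Their median change was -0.39 (log2). The 4 with the smallest p were CCK (-2.38, SE 0.06), which encodes cholecystokinin, CAV1 (-2.18, SE 0.06), of caveolae, the lipase gene ABHD6 (-1.38, SE 0.06) and the sarcomere gene MYOM2 (1.40, SE 0.06). MYOM2, with 310.2 and 374 CPM with CBL0137, and 124 and 135 CPM with DMSO, thus rose, as did ADGRG2 (0.96) and SALL2 (0.71), which were chosen after their values were seen.

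The fused genes and the cofactors and regulators of the fusion protein formed the other list. Of 45 such genes 44 were tested, 4 fell (9.09%), 2 rose (4.55%) and 38 were not called, and the median change was -0.20 (log2). Both shares were below the 15.1% lower and 18.2% higher over all genes tested. Without the fold limit 26 of the 44 were lower and 5 higher, beside 30.9% and 30.8% of all genes. FLI1 was at 72.6 and 69.5 CPM with CBL0137, and 69.4 and 70.4 CPM with DMSO (0.02, SE 0.06, adjusted p = 0.77). EWSR1 was at 349 and 357 CPM with CBL0137, and 399.96 and 400.2 CPM with DMSO (-0.18, SE 0.05, adjusted p = 0.0023), under the fold limit. The genes that fell were RNF2, a Polycomb ubiquitin ligase reported at fusion-bound enhancers (-1.16, SE 0.06), the deacetylase gene HDAC2 (-0.79, SE 0.05), and STAG2 (-0.71) and RAD21 (-0.62), both of cohesin. CDK7, a kinase of transcription initiation, rose (1.15, SE 0.08). ERF, an ETS-family repressor, rose too (0.59), just past the fold limit. Without DMSO replicate 2, or without CBL0137 replicate 1, 1 gene of this list rose. RAD21 and ERF were named here after their values were seen.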

How the data were processed

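RNA-seq was done on 4 SKNMC libraries, 2 with CBL0137 and 2 with DMSO, grouped by sample title. Per the series' design text in the labels, the authors trimmed adapters with Trim Galore, mapped reads to hg19 with HISAT2, made the deposited raw counts per gene with HTSeq 0.11.1 and called genes with DESeq2 1.26.0. The deposited FPKM values are described as computed by the authors from read number, gene length and depth. For some genes they were not in fixed proportion to the deposited counts across libraries. The submitters' processing notes also name mm10, without a role. The sources used here do not give the annotation release, library selection or strand setting.

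Of the table's entries, 6 name no gene and were left out of tests. Reads in no gene made up 10.3% and 10.2% with CBL0137 and 8.52% and 8.82% with DMSO, and ambiguous reads 8.75% and 8.78% with CBL0137 and 9.34% and 9.27% with DMSO. Counts were tested with edgeR 4.0.16 (TMM, filterByExpr, quasi-likelihood F test) in R 4.3.3, called at an adjusted p under 0.05 and a fold above 1.5, the limits of the design text. SE was obtained from each log2 fold change and its F statistic, as their ratio with F under a square root. FPKM were tested with limma 3.58.1 on log2(FPKM + 1) for genes of at least 0.5 FPKM in 2 libraries, and fold changes on that scale understate changes of low genes. DESeq2 1.42.0 was an alternative. The edgeR and limma steps were tested on simulated data. Replicates differed by more than sampling noise (chi-square per degree of freedom 2.82 with CBL0137 and 3.12 with DMSO). An exact permutation test of 2 libraries against 2 cannot give a p below 0.333.

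Positions and transcript GC come from GENCODE release 44 on GRCh37, the build of hg19. Of the 29 members, 18 overlap another annotated gene, 14 of them one on the opposite strand. The GGAA search was added after the values were seen. The members and lists were chosen with earlier results of these data known. Named genes are all members, the 4 genes of smallest p in each other list, EWSR1, FLI1 and markers. Genes named otherwise are said to be. One marker list is not reported here.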

Additional observations from a re-analysis of the deposited data

How the results depend on the processing

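Over 16 alternatives, 6 of the 14 called members (LBH, PRKCB, JAKMIP2, FCGRT, APCDD1 and UGT3A2) were called in every one, and BCL11B and PAX7 in every one but the fold above 2. Of 444 values of members under alternatives, 383 kept direction and side of the threshold, 20 lost the call, 17 gained one and 24 changed sign. The causes were not tested.

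The number of members lower, 13, was 8 with a fold above 2 and with FPKM and no filter, and 12 to 14 with single libraries left out. The number higher, 1, was 2 with library size alone or the GC and length trend removed, and 5 with no fold limit. Among other activated genes 8 were lower and 1 higher with a fold above 2, beside 7.01% and 11.4% of all genes. With no fold limit 10 of them were higher, beside 30.8%. Among the fusion partners and cofactors, lower calls (4) numbered 2 with library size alone and 26 without the fold limit. The shares of all genes were 10.8% and 30.9%. Lower calls of this list numbered 1 with a fold above 2 and 8 with the GC and length trend removed, beside 7.01% and 16.5%. Higher calls there (2) numbered 1 with DESeq2, no filter, a fold above 2 or the trend removed. With DESeq2, a fold above 2 and the trend removed, 10.9%, 11.4% and 16.1% of all genes were higher. Higher calls of the list numbered 5 with no fold limit, beside 30.8%, and 1 to 2 with single libraries left out.

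Of all genes, 5375 were lower and 5347 higher (10722 called) without the fold limit. They were 1218 and 1988 (3206) with a fold above 2, 1571 lower (3696 called) with log2(FPKM + 1), and 1057 and 1215 (2272) with FPKM and no filter. The main numbers were 2632 lower and 3166 higher (5798).

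Sign changes concerned genes near 0. E2F3 was at 0.077 with library size alone and at 0.17, 0.19 and 0.17 with log2(FPKM + 1), log2(FPKM + 0.1) and FPKM with no filter. In the same order CACNB2 was at 0.016, 0.052, 0.083 and 0.052, RBM11 at 0.11, 0.14, 0.14 and 0.14, and NPY1R at 0.14, 0.32, 0.33 and 0.32. With upper-quartile factors RBM11 was at 0.018 and NPY1R at 0.047. With the GC and length trend removed NKX2-2 was at -0.039, KCNAB3 at -0.036, RBM11 at 0.19 and NPY1R at 0.20. With single libraries left out NPY1R ranged from -0.085 to 0.0098, and was above 0 without DMSO replicate 2 (0.0098) or CBL0137 replicate 1 (0.0046).

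With the replicate number as a block 13 members were lower and 1 higher, and no call of a member changed. The labels do not say that the numbers pair libraries, and the deviations of same-numbered libraries correlated at 0.02 across genes. Depth limits REPS2, FATE1, TERT, GSTM4 and UPP1, with at most 306 reads over the 4 libraries.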
